A study of Homo sapiens with 4 samples.

Results

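The immune checkpoint ligands considered here are 10 genes whose products sit on, or are released from, tumor cells and are read by receptors of T cells, natural killer cells and macrophages. They were chosen by symbol, CD274, PDCD1LG2, CD276, CD47, PVR, PVRL2, MICA, MICB, ULBP2 and LGALS9, among 63677 rows of the deposited table, and where a symbol had several rows the row with the highest mean was kept. This applied to MICA, with 5 rows, and to MICB, with 8 rows, and in both genes only 1 row held any reads. All 10 genes passed the filter for low counts and were tested. RNA came from MDA-MB-231, an established human triple-negative breast cancer cell line, after transfection with a control siRNA (siCt, 2 libraries) or with a commercial pool of siRNAs against AXL (siAXL, 2 libraries). AXL encodes a TAM family receptor with tyrosine kinase activity. The labels give neither a time after transfection nor whether the libraries came from separate cultures, so the p-values measure the spread between these libraries, which may be technical. The labels name no other cell type in these cultures, and the data measure RNA in bulk, not protein at the cell surface.

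These ligands act by engaging receptors on another cell. CD274 (PD-L1) and PDCD1LG2 (PD-L2) bind the receptor PD-1 and restrain T cells, and CD276 (B7-H3) is a related B7 family protein. CD47 binds SIRPA on macrophages and inhibits phagocytosis. PVR (CD155) and PVRL2 (CD112, now named NECTIN2) bind the inhibitory receptor TIGIT and the activating receptor CD226. MICA, MICB and ULBP2 are stress-induced ligands of the activating receptor NKG2D, so that they mark a cell for natural killer cells rather than protect it. LGALS9 (galectin-9) is a secreted lectin that binds TIM-3.

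The libraries held 39574387 to 44585773 reads on genes, recovered from the deposited normalized counts. AXL, the targeted gene, had 29189 and 30617 normalized counts in the siCt libraries and 8658 and 7141 in the siAXL libraries, lower in both libraries labelled siAXL. Of the leukocyte markers, CD2, MS4A1 and NKG7 had no read in any library, and all 12 together summed to 441 and 518 normalized counts in siCt and 338 and 404 in siAXL, mostly from CSF1R and CD14. The estrogen and progesterone receptor genes, ESR1 and PGR, had at most 3.25 normalized counts in any library, whereas the keratin gene KRT8 had between 15671 and 20771. ERBB2, which encodes the HER2 receptor, had between 2949 and 3680.

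AXL depletion was accompanied by small increases of several ligands. At a limma adjusted p under 0.05, 5 of the 10 genes were higher in siAXL (CD276, CD47, MICB, CD274 and PVRL2) and 1 was lower (MICA). PVR, PDCD1LG2, ULBP2 and LGALS9 were not called. Over all 16064 genes tested, 18.7% were called, 10.8% higher and 7.91% lower. The counts called in every gene list below are to be set beside these shares. The median log2 fold change of the 10 ligands was 0.19, compared with -0.0022 over all genes tested. The siAXL libraries both lay above both siCt libraries in 7 of the 10 ligands and below both in 2, whereas 30.6% of all genes tested lay above and 30.5% below. The ligands were chosen with earlier results of these data known, so these comparisons with all genes are not independent of the data. The largest change, that of CD276, was 1.44-fold. Since 2 libraries against 2 cannot give a two-sided permutation p under 0.333, the calls depend on limma, which pools information on variance over all genes.

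**Figure D1:**
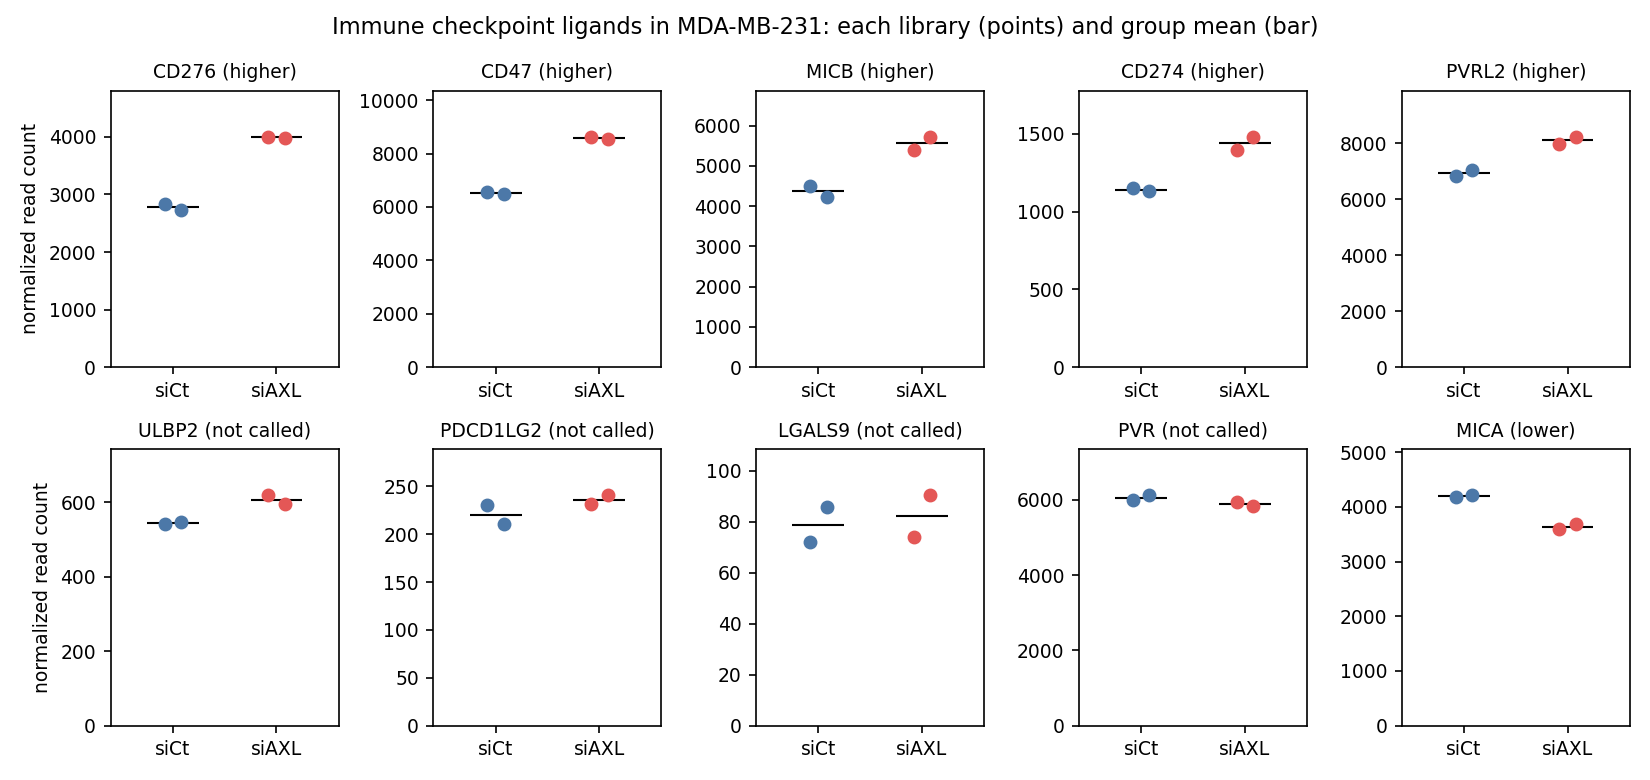
Normalized read count (y axis, from 0, a separate scale for each gene) of the 10 ligands in each siCt library (blue points) and each siAXL library (red points), with the mean of the 2 libraries as a black bar. CD276 had 2831 and 2727 in siCt against 4004 and 3984 in siAXL, while the 4 points of LGALS9 overlap between 71.9 and 90.4.

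CD276 had the largest rise of the 10 ligands. It had 2831 and 2727 normalized counts in the siCt libraries 1 and 2, against 4004 and 3984 in siAXL 1 and 2. The mean was 2779 ± 73.1 in siCt and 3994 ± 14.1 in siAXL (SD, n = 2 in each), and the groups lay far apart compared with the spread within them. The log2 fold change was 0.52 (standard error, SE, 0.0554, adjusted p = 0.00271 by limma), and 93.4% of all genes tested had a value at or below it. CD276 kept its call when any of the 4 libraries was omitted.

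CD274 encodes PD-L1, the main ligand of PD-1 on tumor cells. It had 1151 and 1133 normalized counts in the siCt libraries 1 and 2, against 1395 and 1483 in siAXL 1 and 2. Both siAXL libraries were higher, and they differed from each other more than the siCt libraries did. The log2 fold change was 0.33 (SE 0.0676, adjusted p = 0.0184 by limma), or 1.26-fold. The call was lost without siAXL 2, at 0.29 (adjusted p = 0.103).

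PDCD1LG2, the second ligand of PD-1, lies close to CD274 on chromosome 9. It had 230 and 210 normalized counts in the siCt libraries 1 and 2, against 231 and 241 in siAXL 1 and 2. The siAXL libraries were above the siCt libraries by a margin smaller than the spread within siCt. Its log2 fold change was 0.10 with a 95% interval from -0.17 to 0.37 (limma adjusted p = 0.590). That interval includes the value of CD274, so that a change of the same size in PDCD1LG2 is not excluded. The ratio of CD274 to PDCD1LG2 in normalized counts was 5.0 and 5.39 in siCt and 6.03 and 6.16 in siAXL.

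The 250 bases before the start of CD274 are shown because they hold sequence words bound by factors of the interferon pathway, which is known for inducing this gene. The sequence is from RefSeq (GRCh38.p14, chr9:5450292-5450541, plus strand), and the capitals mark 2 overlapping matches to the core of the interferon-stimulated response element (GAAANNGAAA on either strand) and 1 match to the core of the gamma-activated site (TTCNNNGAA).
CD274: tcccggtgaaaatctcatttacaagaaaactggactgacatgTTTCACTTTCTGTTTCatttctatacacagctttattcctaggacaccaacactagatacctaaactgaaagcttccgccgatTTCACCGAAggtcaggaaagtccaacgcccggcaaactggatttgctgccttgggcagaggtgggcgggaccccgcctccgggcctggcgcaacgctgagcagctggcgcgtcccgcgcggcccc

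The first of these cores was found in 3.02% and the second in 6.57% of 35116 RefSeq promoter windows of the same length. Of the 9 ligands with a window in that table, CD274 alone held either core. PDCD1LG2 had no window there, so its promoter was not examined. These matches describe the letters of the window and say nothing of binding in these cells. Of the 13 listed genes of interferon gamma and JAK-STAT signaling, 1 was called higher and 2 lower, with a median log2 fold change of -0.069. The shares over all genes tested were 10.8% higher and 7.91% lower. IFNGR2, a chain of the interferon gamma receptor, rose by 0.33 (SE 0.0679, adjusted p = 0.0188 by limma). IRF1, the transcription factor that binds such elements, had 3054 and 3191 normalized counts in siCt and 2584 and 2506 in siAXL, and was lower by a log2 fold change of -0.30 (SE 0.0583, adjusted p = 0.0169 by limma). SOCS3, a feedback inhibitor of JAK signaling, was also lower, at -0.35 (SE 0.067, adjusted p = 0.0154 by limma). CD274 was higher in the same libraries in which IRF1 was lower and IFNGR2 higher. The part of this pathway in the value of CD274 was not tested.

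The neighbors of CD274 and PDCD1LG2 on chromosome 9 gave no call. Of 10 listed neighbors, 5 were tested, and their log2 fold changes ran from -0.16 in PLGRKT to 0.27 in KIAA2026, with a median of 0.12. JAK2, which is both a neighbor and a kinase of the pathway, had a log2 fold change of 0.094 (SE 0.106, adjusted p = 0.587 by limma).

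CD47, the signal against phagocytosis, was the second largest rise and the most uniform between libraries. It had 6563 and 6489 normalized counts in the siCt libraries 1 and 2, against 8636 and 8557 in siAXL 1 and 2. The means were 6526 ± 52.0 in siCt and 8596 ± 56.3 in siAXL (SD, n = 2 in each), a difference well beyond the spread of either group. The log2 fold change was 0.40 (SE 0.0512, adjusted p = 0.00435 by limma), and stayed between 0.39 and 0.41 when any library was omitted. SIRPA, its receptor, had 37.9 to 56.6 normalized counts per library and was not called. QPCTL, the enzyme that modifies CD47 so that SIRPA can bind it, had a log2 fold change of 0.079 (SE 0.0713, adjusted p = 0.488 by limma).

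The 3′ UTRs of CD276 and CD47 share a 7-base word, CACATCA, with PVR. The word is shown because in an earlier examination of these libraries genes carrying it were shifted upward in siAXL, so that its choice is not independent of the data. In the longest coding 3′ UTR of each gene in GENCODE 29, the word stands in capitals at these sites.
CD276: agtacactgacCACATCAccaccctcttc
CD47, first site: ccaaattccatCACATCAcatttaaattg
CD47, second site: acagtgttttgCACATCAtgtatctgttt
PVR: ccaccataaatCACATCAttagcatgaac

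Of 12959 genes tested with a 3′ UTR in that annotation, 1507 (11.6%) held the word, with a median log2 fold change of 0.10 compared with -0.010 in the other genes. Carriers had longer 3′ UTRs, with a median of 3224 bases against 1212. CD276 and CD47 had the largest log2 fold changes of the 10 ligands, while PVR, which also holds the word, had -0.040. CD274, MICB and PVRL2 rose without it. Its part in these values was not tested.

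The nectin family ligands PVR and PVRL2 had similar levels in siCt and differed after AXL depletion. PVRL2 had 6844 and 7050 normalized counts in the siCt libraries 1 and 2, against 7997 and 8244 in siAXL 1 and 2. The siAXL libraries were both higher, with a log2 fold change of 0.23 (SE 0.0535, adjusted p = 0.0294 by limma). The call was lost without siCt 1 (0.20, adjusted p = 0.0856), without siAXL 1 (0.25, adjusted p = 0.100) and without siAXL 2 (0.20, adjusted p = 0.153).

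PVR had 5991 and 6128 normalized counts in the siCt libraries 1 and 2, against 5953 and 5839 in siAXL 1 and 2. The siAXL libraries lay below the siCt libraries by less than the difference within either group. Its log2 fold change was -0.040 (95% interval -0.16 to 0.084, limma adjusted p = 0.648), an interval that reaches neither the value of PVRL2 nor that of CD276. The ratio of PVRL2 to PVR was 1.14 and 1.15 in the siCt libraries and 1.34 and 1.41 in the siAXL libraries. This ratio of reads is not corrected for length, and the difference between the groups was not tested. PVR shares exon sequence with CEACAM19 on the same strand, which had 536 reads per library on average against 5994 for PVR and was not called (-0.10, SE 0.131, adjusted p = 0.635 by limma).

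Other members of these families were partly absent from the line. Of 11 further B7, butyrophilin-like and nectin genes, 6 were tested and 2 were called, both higher, with a median of 0.20. The share called higher over all genes tested was 10.8%. The 2 called were PVRL1 (0.55, SE 0.0762, adjusted p = 0.00555 by limma) and PVRL3 (0.42, SE 0.061, adjusted p = 0.00662 by limma), adhesion molecules of the nectin family. PVRL3 is itself a partner of PVR in cell contacts. CD80, CD86 and BTNL2 had no read in any library, and VTCN1 and PVRL4 were below the filter. ICOSLG, the ligand of the costimulatory receptor ICOS, went the other way and was not called, at -0.34 (SE 0.0973, adjusted p = 0.0528 by limma, 0.0530 by edgeR and 0.0452 by DESeq2). HHLA2, a B7 family member with few reads, had 15.3 and 17.3 normalized counts in siCt and 28.2 and 31.4 in siAXL, a log2 fold change of 0.83 that was not called (SE 0.266, adjusted p = 0.0714 by limma).

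The NKG2D ligands MICA and MICB moved in opposite directions. MICB had 4509 and 4227 normalized counts in the siCt libraries 1 and 2, against 5396 and 5726 in siAXL 1 and 2. Its log2 fold change was 0.35 (SE 0.0617, adjusted p = 0.0118 by limma), and the groups did not overlap. Without siAXL 2 it was 0.31 (adjusted p = 0.0565).

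MICA had 4187 and 4214 normalized counts in the siCt libraries 1 and 2, against 3589 and 3679 in siAXL 1 and 2. The siCt libraries were nearly equal and both above the siAXL libraries. Its log2 fold change was -0.21 (SE 0.0536, adjusted p = 0.0368 by limma). The direction held with each library left out, between -0.23 and -0.19, but the call did not, with adjusted p-values of 0.0668 without siCt 1, 0.109 without siCt 2, 0.200 without siAXL 1 and 0.121 without siAXL 2.

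The ratio of MICB to MICA went from 1.08 and 1.0 in the siCt libraries to 1.5 and 1.56 in the siAXL libraries. Their sum was 8695 and 8441 normalized counts in siCt and 8985 and 9405 in siAXL, a log2 ratio of the means of 0.10, smaller in size than the log2 fold change of either gene. The 95% intervals of both log2 fold changes, 0.20 to 0.49 for MICB and -0.34 to -0.083 for MICA, lay apart. The difference itself was not tested in a model.

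MICA and MICB are related copies on chromosome 6, so that reads could in principle be split between them. Their longest coding transcripts in GENCODE 29 have 2260 bases in MICA and 2446 in MICB. They were 89.1% identical over 1373 aligned bases, and the bases left unaligned did not enter this share. No window of 100 bases of either one occurred in a transcript of another gene. The read length was not given, so this check cannot decide whether shorter reads were split. The part of such reads in the values of MICA and MICB was not tested. Exons of MICA also overlap exons of the noncoding gene HCP5 on the same strand. That overlap was taken over all annotated transcripts, whereas the windows of MICA came from its longest coding transcript alone. HCP5 had 680 reads per library on average against 3924 for MICA, and was itself lower in siAXL (log2 fold change -0.58, SE 0.149, adjusted p = 0.0376 by limma). Its part in the value of MICA was not tested.

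The promoters of the pair are shown because the genes are copies with opposite changes. They are the 250 bases before each start in RefSeq (GRCh38.p14, plus strand), at chr6:31403345-31403594 for MICA and chr6:31497895-31498144 for MICB, and the capitals mark the CCAAT box (CCAAT on either strand).
MICA: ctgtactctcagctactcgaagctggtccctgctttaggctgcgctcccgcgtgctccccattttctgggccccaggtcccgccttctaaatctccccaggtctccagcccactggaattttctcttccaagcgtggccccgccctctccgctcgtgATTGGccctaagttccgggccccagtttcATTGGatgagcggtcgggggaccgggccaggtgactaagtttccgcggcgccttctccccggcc
MICB: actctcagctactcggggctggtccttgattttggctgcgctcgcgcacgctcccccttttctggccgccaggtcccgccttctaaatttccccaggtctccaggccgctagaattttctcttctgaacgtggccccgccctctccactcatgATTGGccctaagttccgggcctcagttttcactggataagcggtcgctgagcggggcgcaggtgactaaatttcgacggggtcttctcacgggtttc

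The windows were 85.0% identical over 246 aligned bases. MICA held 2 CCAAT boxes and MICB held 1, and this word was found in 32% of all windows. Each window also held 1 GC box (GGGCGG on either strand), which 42.6% of windows held.

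ULBP2, the third NKG2D ligand, had 543 and 546 normalized counts in the siCt libraries 1 and 2, against 620 and 594 in siAXL 1 and 2. Both siAXL libraries were above both siCt libraries, but the log2 fold change of 0.16 had a 95% interval from -0.033 to 0.35 (limma adjusted p = 0.222). Of its windows of 100 bases, 11.9% also occurred in transcripts of other genes, mainly RAET1L and RAET1G, so that its reads may be counted incompletely. Of the 5 other NKG2D ligands, 4 were tested and RAET1G alone was called, higher by 0.64 (SE 0.15, adjusted p = 0.0284 by limma), and the call was lost with DESeq2 (adjusted p = 0.0721). It had 84.4 and 93.2 normalized counts in siCt and 132 and 145 in siAXL. The 3 others tested, ULBP1, ULBP3 and RAET1E, had values between -0.15 and 0.044. Over all genes tested, 10.8% were called higher and 7.91% lower.

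LGALS9 had few counted reads. It had 71.9 and 85.6 normalized counts in the siCt libraries 1 and 2, against 73.8 and 90.4 in siAXL 1 and 2. Of its windows of 100 bases, 7.6% also occurred in transcripts of other genes, mainly AC015688.4 and LGALS9DP, so that its reads may be counted incompletely. The groups overlapped, and the log2 fold change was 0.057 (95% interval -0.39 to 0.50, limma adjusted p = 0.863). In contrast, LGALS1, another galectin with known effects on T cells, was abundant and rose by 0.32 (SE 0.0536, adjusted p = 0.0104 by limma), from 17990 and 17484 to 22181 and 21963 normalized counts. LGALS1 was the only limma call among 10 further inhibitory ligands, of which 8 were tested with a median of 0.15. HLA-E was called higher by edgeR alone (0.17, SE 0.0557, adjusted p = 0.0780 by limma, 0.0451 by edgeR and 0.0764 by DESeq2). FGL1 and CD24 were listed at 0 in all libraries.

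**Figure D2:**
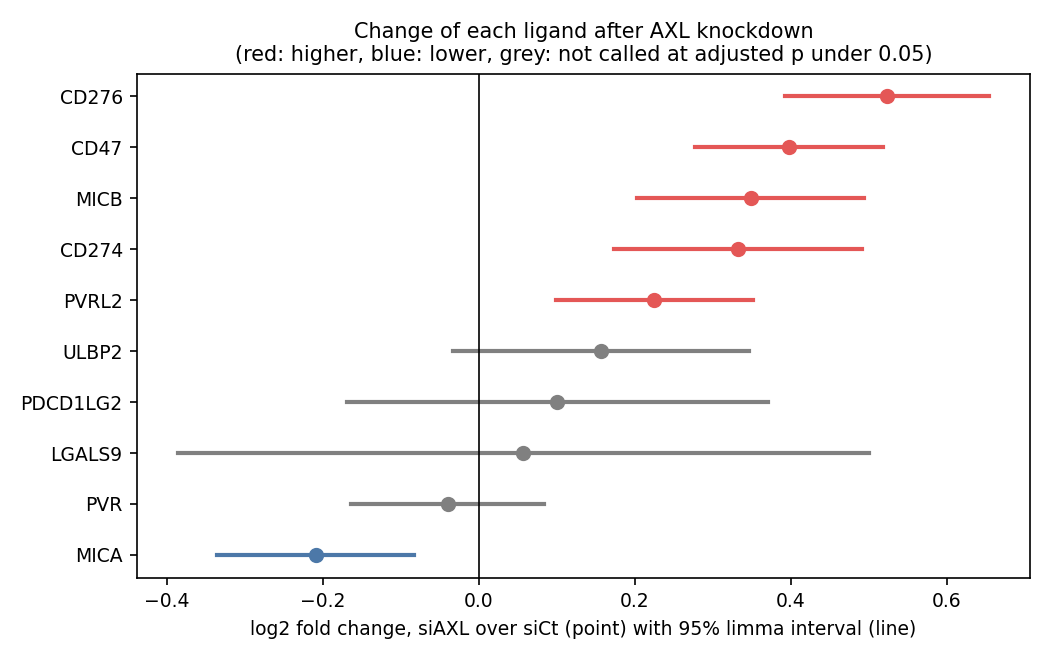
Log2 fold change of siAXL over siCt for each ligand (x axis, points) with its 95% interval from limma (lines), ordered by size. The intervals of CD276, CD47, MICB, CD274 and PVRL2 lie above 0 and that of MICA below 0, while the other 4 cross it, and LGALS9 has the widest.

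Levels of different genes were compared as RPKM (reads per kilobase of exon, scaled to library depth), with exon lengths from GENCODE 29. On this scale the ligands ranged from a mean of 43.4 for PVRL2 to 0.323 for LGALS9 in siCt. PVRL2, MICA (41.3), PVR (40.4) and MICB (36.6) formed an upper group, followed by CD47 (18.6), CD276 (11.8), ULBP2 (9.46), CD274 (6.52) and PDCD1LG2 (2.18). The 2 libraries of neighboring genes in this order did not overlap in siCt. In siAXL the order of the upper group changed to PVRL2 (49.8), MICB (45.6), PVR (38.5) and MICA (35), so that MICB and MICA exchanged places. CD274 was above PDCD1LG2 by a factor of 2.88 and 3.10 in siCt and of 3.47 and 3.55 in siAXL on this scale. These values depend on which isoforms the cells use, and they order the genes only within this annotation.

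**Figure D3:**
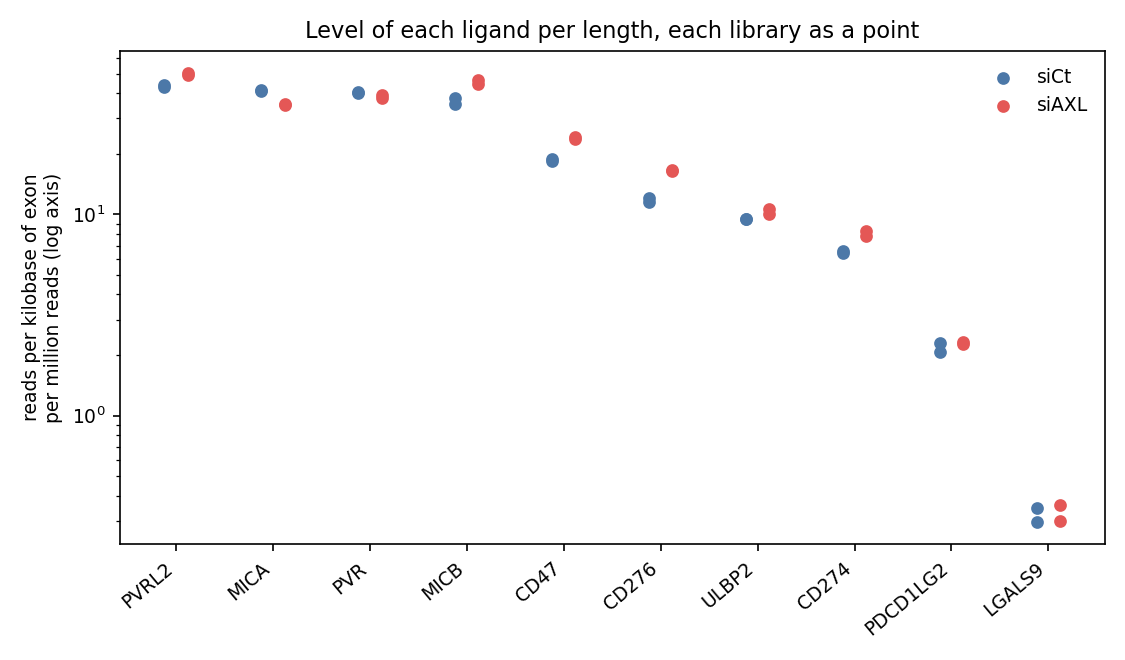
RPKM (reads per kilobase of exon, scaled to library depth, log axis) of each ligand in the siCt (blue) and siAXL (red) libraries, ordered by the siCt mean. The lowest of the upper 4 genes is MICA in siAXL 1 at 34.7, and LGALS9 reaches at most 0.361.

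Several genes that act on the ligand proteins after translation were higher in siAXL. Of 12 listed genes of ligand stability, maturation and shedding, all were tested, 5 were called higher and 0 lower, with a median of 0.17. Over all genes tested, 10.8% were called higher and 7.91% lower. This list was chosen with earlier results of these data known. MMP14, a membrane-bound metalloprotease, rose by 0.47 (SE 0.0644, adjusted p = 0.00528 by limma), and its level was between 43508 and 46697 normalized counts in siCt and between 61632 and 63145 in siAXL. PDIA6, an endoplasmic reticulum disulfide isomerase, rose by 0.39 (SE 0.0582, adjusted p = 0.00697 by limma). ADAM17, a protease that releases NKG2D ligands from the membrane, rose by 0.35 (SE 0.0574, adjusted p = 0.00947 by limma). The other calls were ADAM10 and ERAP1.

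CMTM6, the membrane protein that stabilizes PD-L1, differed little between the groups, at 0.025 (SE 0.0601, adjusted p = 0.817 by limma). Its relative CMTM4 had 2703 and 3151 normalized counts in siCt and 2298 and 2456 in siAXL, a log2 fold change of -0.30 that limma did not call (SE 0.0844, adjusted p = 0.0507), while edgeR (adjusted p = 0.0493) and DESeq2 (adjusted p = 0.0239) called it lower. Of the 5 costimulatory TNF family genes, 4 were tested and CD40 was called, higher by 0.30 (SE 0.0802, adjusted p = 0.0433 by limma), and the call was lost with DESeq2 (adjusted p = 0.0903).

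**Figure D4:**
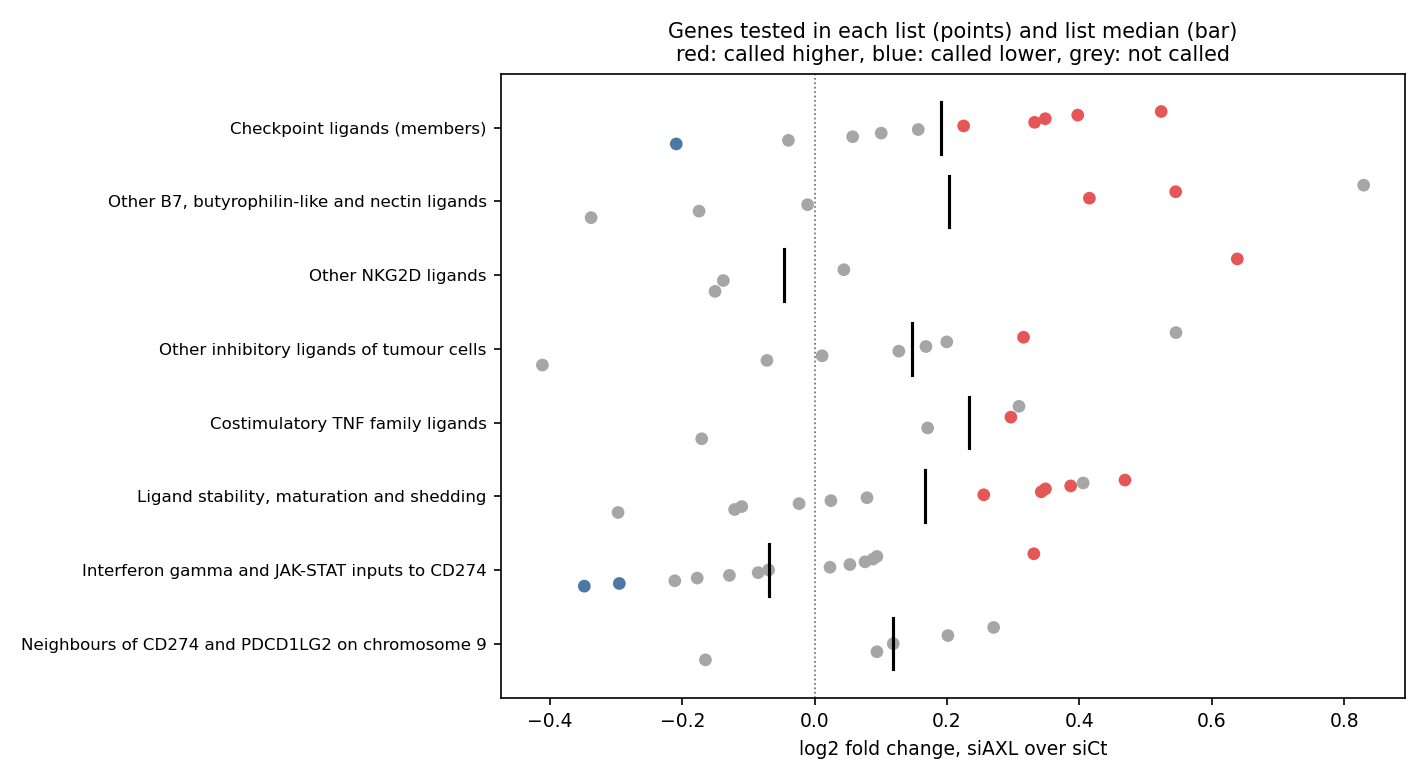
Log2 fold change of siAXL over siCt (x axis) of every gene tested in the ligand list and 7 related lists, 1 point per gene and a black bar at the list median. The ligand list has 5 red points (called higher) and 1 blue point (called lower) around its median of 0.19, and the list of interferon gamma and JAK-STAT genes is centered at -0.069.

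Receptor genes of immune cells were at low levels. Of 11 such genes, PDCD1 and PVRIG had no read, and the highest, SIRPA, had 44.2 reads per library on average. The list also holds CTLA4, CD28 and LAG3, which are not receptors of the 10 ligands. The 11 genes together summed to 113 and 85.6 normalized counts in siCt and 110 and 84.5 in siAXL. Of the 6 fibroblast and endothelial markers, which summed to between 31.6 and 63.9 normalized counts per library, only LUM was tested, and it was not called. Of the 12 leukocyte markers, 4 were tested and CSF1R was called, lower by a log2 fold change of -0.65 (SE 0.138, adjusted p = 0.0219 by limma).

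Among the markers of the line itself, KRT8 was lower (-0.31, SE 0.0669, adjusted p = 0.0232 by limma) and ERBB2 higher (0.26, SE 0.0584, adjusted p = 0.0258 by limma). The other epithelial markers were not called by limma and went in opposite directions. KRT18 had -0.18 (adjusted p = 0.0735 by limma). EPCAM had 0.32 (SE 0.0905, adjusted p = 0.0513 by limma, 0.0430 by edgeR and 0.0700 by DESeq2). VIM and CD44 were not called. Fewer cells in a state and less RNA per cell cannot be told apart in bulk RNA.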

How the data were processed

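The authors deposited 1 table of normalized counts, a signal that scales reads per gene with a DESeq2 size factor per library. Per the labels, the submitters' processing notes name CASAVA 1.8, TopHat2 2.0.10, HTSeq 0.5.3, DESeq2 1.4.5 and the build GRCh37. The strand setting and read length were not given in the sources used here. The table also holds the authors' log2 fold changes, standard errors, test statistics and p-values, which were not used. In each library 100% of values were whole multiples of 1 read (tolerance 0.001), so the reads were recovered.

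Genes passing edgeR's filterByExpr (16064 of 63677) were tested with limma 3.58.1 (lmFit, eBayes with an intensity trend) in R 4.3.3 on log2(normalized count + 1), which shrinks the fold changes of genes with few reads. P-values were adjusted by Benjamini-Hochberg over all genes tested, with a threshold of 0.05. On the recovered reads edgeR 4.0.16 called 3122 genes and DESeq2 1.42.0 called 2759 of the 12949 it gave an adjusted p, against 3006 by limma. The alternatives were other pseudocounts, tests, scalings, filters and thresholds, a replicate block, rows summed by symbol and each library left out in turn.

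The ligands and the gene lists were chosen with earlier results of these data known. Named are all 10 ligands, AXL, up to 3 called genes per list and direction with the smallest adjusted p, and in the ligand, stability and JAK-STAT lists any gene not tested. Genes named beyond this (CMTM6, CMTM4, QPCTL, ICOSLG, HHLA2, JAK2, PLGRKT, KIAA2026, ULBP1, ULBP3, RAET1E, ADAM10, ERAP1, HCP5, HLA-E, EPCAM, KRT18, VIM, CD44, and marker and receptor genes given by level) were chosen after their values were seen. Libraries of 1 group differed by more than sampling noise (chi-square per gene 20.1 between the siCt and 18.2 between the siAXL libraries). Exon lengths, overlaps and 3′ UTRs came from GENCODE 29 (GRCh38) by Ensembl identifier, and promoters from RefSeq (GRCh38.p14) by symbol for 9 of 10 ligands. No coordinates were converted between builds.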

Additional observations from a re-analysis of the deposited data

How the results depend on the processing

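All 10 ligands kept their direction with pseudocounts of 0.5 and 8, edgeR, DESeq2, TMM scaling, library size alone, a filter that keeps genes with 1 or more counts, the replicate block and summed rows. LGALS9 reversed to -0.067 without siCt 1 and to -0.087 without siAXL 2 (-0.087 to 0.20 over the 4 libraries left out). With every gene of at least 1 count tested, 1097 genes were called, 2 ligands higher (CD276 and CD47) and 0 lower. The log2 fold changes of MICB (0.35, limma adjusted p = 0.0511), CD274 (0.33, 0.0546), PVRL2 (0.23, 0.0750) and MICA (-0.21, 0.0821) were then not called, with 27108 genes tested in place of 16064, and the cause was not tested. At an adjusted p under 0.01, 859 genes were called, 2 ligands higher and 0 lower.

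With each library left out, between 1301 genes (without siAXL 1) and 3900 (without siCt 1) were called, and 1518 without siAXL 2, with 2 to 5 ligands higher and 0 lower. The values ran from 0.30 to 0.40 for MICB, 0.29 to 0.38 for CD274, 0.20 to 0.25 for PVRL2 and -0.23 to -0.19 for MICA. In these fits the lone library was assumed to vary like the other group. Library size alone lowered the share of called genes that were higher from 57.7% to 46.8%.

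The labels number the libraries 1 and 2 in each group but do not say that a number marks a shared culture or day. Deviations of same-numbered libraries correlated at 0.27 across genes. With the replicate block 7310 genes were called, and the same count of ligands, 5 higher and 1 lower. For LGALS9, at 75 to 92 reads per library, depth limits what can be seen.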
